A study of Mus musculus with 27 samples.

Results

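The growth hormone and insulin-like growth factor (IGF) axis was followed through 10 genes in the livers of 27 mice. The 10 genes, Ghr, Stat5b, Igf1, Igfals, Igfbp3, Igfbp1, Igfbp2, Igfbp4, Socs2 and Cish, were chosen by name, found through their Ensembl identifiers among the 55414 genes counted, and all 10 passed the filter on low counts (10 or more counts per library on average). The mice were female Balb/c animals aged 8 weeks, and each library came from the liver of 1 mouse. Control mice (n = 4) had olive oil injected into the peritoneum and phosphate-buffered saline into the tail vein. The 4MU mice (n = 3) had the oil and were gavaged daily with 4-methylumbelliferone, an inhibitor of hyaluronan synthesis, at 600 mg/kg. The siLuc-LNP (n = 3) and siHAS2-LNP mice (n = 3) had the oil and tail vein injections of small interfering RNA packed in lipid nanoparticles, directed at luciferase, which mice lack, or at hyaluronan synthase 2, at 1 mg/kg and then 0.5 mg/kg. The 4 corresponding fibrosis groups had carbon tetrachloride (CCl4) injected into the peritoneum for 2 weeks, either with no further agent named in the labels (CCl4, n = 2) or with the same agents (CCl4 + siHAS2-LNP, CCl4 + siLuc-LNP and CCl4 + 4MU, n = 4 each). The CCl4 group is a toxic injury model of short duration, and its 2 mice carry every comparison made against it.

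Growth hormone from the pituitary binds its receptor GHR on hepatocytes, which activates the kinase JAK2 and then the transcription factor STAT5B. STAT5B drives Igf1 and Igfals, so that the liver supplies most circulating IGF-1, carried in a ternary complex of IGF-1, IGFBP-3 and the acid-labile subunit encoded by Igfals. It also drives Socs2 and Cish, whose products damp the receptor's signal. The smaller binding proteins IGFBP-1, IGFBP-2 and IGFBP-4 bind IGFs outside that complex, and Igfbp1 is under strong suppression by insulin. The pulsed or steady rhythm of growth hormone also sets the sex-biased genes of the rodent liver.

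Libraries held 7044386 to 29425937 counts, so that a limit of 3 counts corresponded to 0.102 to 0.426 CPM (counts per 1000000 counts of the library). All other levels, the marker sums included, use library totals multiplied by a TMM normalisation factor. This factor was 1.13 and 1.32 in the CCl4 mice and 0.895 to 0.945 in control, and a larger factor gives lower CPM. The RNA interference target could not be checked, since Has2 had 0 counts in 25 of 27 libraries and at most 2 counts in the others. The tissue label was met by its markers, as 17 of the 18 hepatocyte markers were found, none of the 17 was at 0 in any group, and their summed level was 158000 to 234000 CPM in the mice without CCl4. In the CCl4-injected mice this sum was 97500 to 221000. It was lowest in the CCl4 group, at 97500 to 158000, against 199000 to 234000 in control, and stood at 184000 to 221000 in CCl4 + 4MU, 139000 to 191000 in CCl4 + siLuc-LNP and 138000 to 200000 in CCl4 + siHAS2-LNP. Stellate cell and myofibroblast markers summed to a median of 411 without CCl4 and 787 with it, and cholangiocyte markers to 67.8 and 276. With CCl4, averaged over treatments, 2 of 17 hepatocyte markers rose and 10 fell, against 10 and 2 of 14 for stellate cells, 7 and 0 of 9 for cholangiocytes, 5 and 1 of 12 for endothelial cells, 2 and 6 of 13 for Kupffer cells and macrophages (8 and 1 with 4MU, 0 and 9 with siHAS2-LNP), 0 and 4 of 10 for lymphocytes and 0 and 3 of 6 for red cells. Of all genes tested, 51.9% passed in this averaged effect (edgeR, adjusted p under 0.05), 23.7% with 4MU and 12.8% with siHAS2-LNP. Near the averaged share were the endothelial (50% passing), red cell (50%), lymphocyte (40%) and Kupffer cell and macrophage markers (61.5%). In bulk liver, fewer cells of a type and less RNA per cell cannot be told apart.

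Per length, the growth hormone and IGF genes spanned a wide range in control livers. Igfbp4 stood at 440 ± 71.4 (SD, n = 4) and Igfbp2 at 402 ± 115 RPKM (reads per kilobase of transcript, scaled to library size as CPM). Ghr stood at 96.3 ± 10.4, Igf1 at 75.1 ± 16.1, Igfals at 52.1 ± 13.3 and Igfbp1 at 26.5 ± 10.5 on the same scale. Stat5b (9.60 ± 0.736), Socs2 (7.99 ± 2.54), Igfbp3 (6.86 ± 2.27) and Cish (2.05 ± 0.669) were the lowest. All further levels are in CPM after TMM normalisation and are compared for 1 gene at a time.

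**Figure D1:**
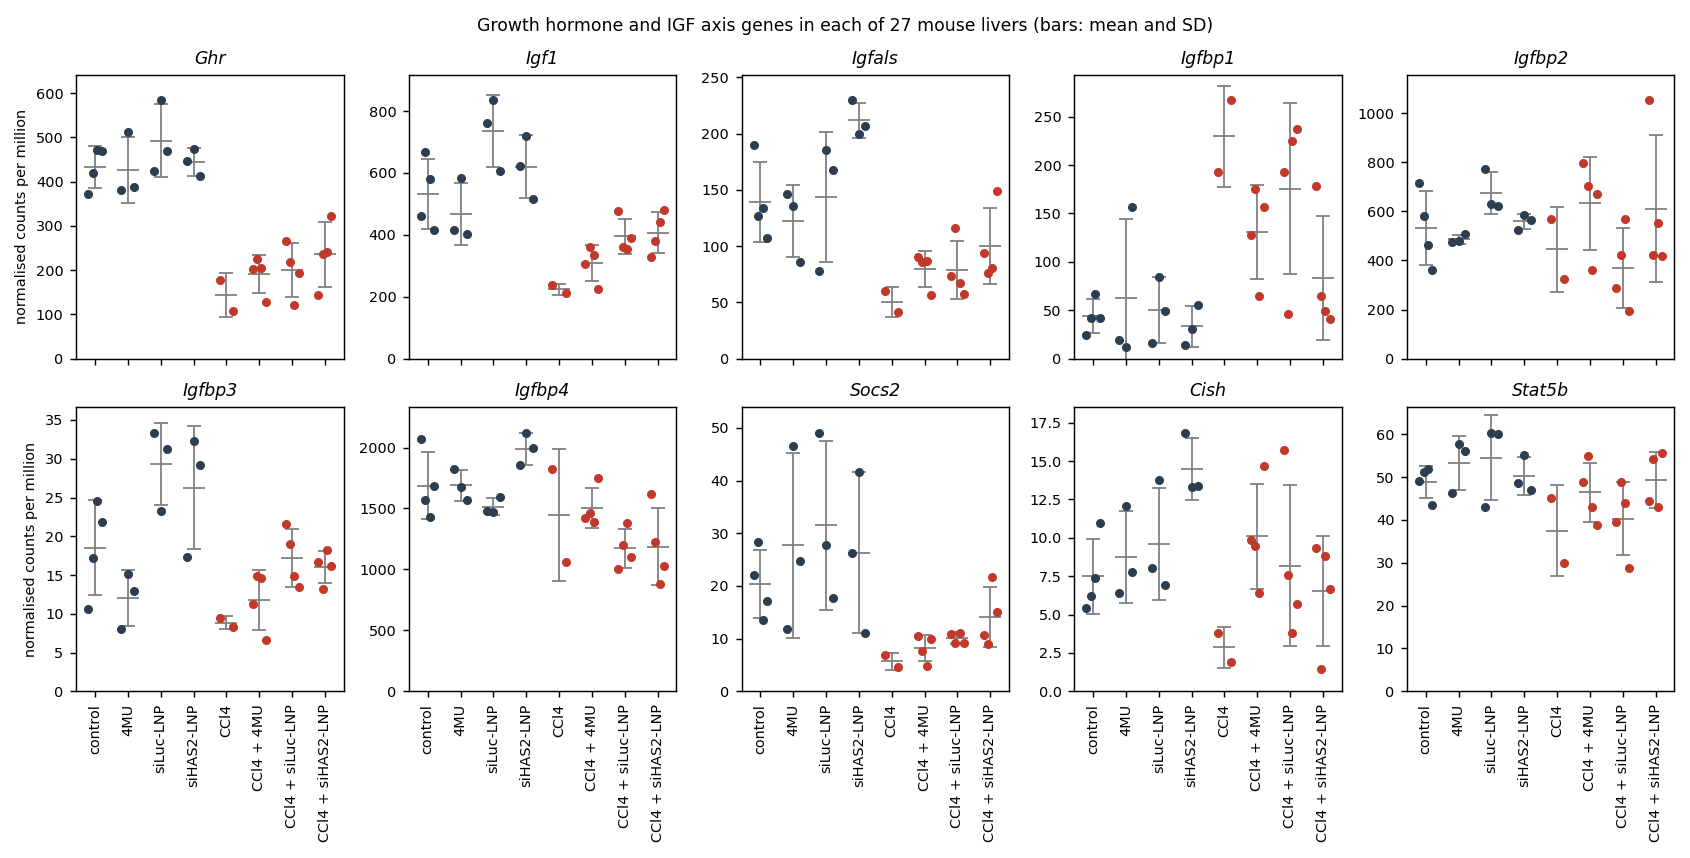
Normalised CPM (vertical axes, linear, from 0) of the 10 genes in each mouse, by group. Points are mice, dark without CCl4 and red with CCl4, and bars show the mean and SD of a group (a lower bar that would pass 0 is cut there). Ghr is the gene in which all 14 CCl4-injected mice, at 108.6 to 322 CPM, lie below all 13 other mice, at 372 to 584 CPM.

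The first comparison asked what CCl4 did to these genes whatever else the mice received, as the CCl4 effect averaged over the 4 treatments. Of the 10 genes, 8 fell and 1, Igfbp1, rose, and Igfbp2 did not pass the test (edgeR's quasi-likelihood test, Benjamini-Hochberg adjusted p under 0.05 over 14114 genes). CCl4 moved much of the transcriptome, and 51.9% of all genes tested were called, 25.6% lower and 26.3% higher. The median log2 fold change of the 10 genes was -0.64, and that of all genes tested was -0.02. The largest falls in size were those of Socs2, Ghr and Igfals.

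Ghr, which encodes the growth hormone receptor, lies on chromosome 15 (GRCm39, 3347235 to 3613024, minus strand). Its level was 372, 419, 471 and 469 CPM in the control mice, 380.2, 513 and 388 in 4MU, 425, 584 and 468 in siLuc-LNP, and 447, 474 and 412 in siHAS2-LNP. With CCl4 it was 179 and 108.6 CPM in the CCl4 group, 203, 226, 206 and 128 in CCl4 + 4MU, 266, 219, 120.1 and 193 in CCl4 + siLuc-LNP, and 143, 237, 241 and 322 in CCl4 + siHAS2-LNP. The mice with and without CCl4 did not overlap. This also held for genes outside the 10, such as Grb10 and Cyp7b1, and was not counted over all genes. The share of all genes without overlap was not counted for any comparison of groups, here or below. In the order of group means, the only neighbours that did not overlap were 4MU and CCl4 + siHAS2-LNP, the step between mice without and with CCl4. Ghr fell 2.37-fold on average, by 1.24 on the log2 scale (SE 0.133, adjusted p = 2.84e-08 in the edgeR test). It fell under each treatment, with log2 fold changes of -1.59 in CCl4 against control, -1.16 with 4MU, -1.30 with siLuc-LNP and -0.92 with siHAS2-LNP, the last lost without mouse 2 of siHAS2-LNP (adjusted p = 0.0608 in edgeR).

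Stat5b (chromosome 11, 100671556 to 100741589, minus strand), the signal transducer of the receptor, changed little beside it. It ranged from 43.0 to 60.3 CPM (median 51.2) in the 13 mice without CCl4 and from 28.9 to 55.6 (median 44.2) in the 14 with CCl4, with overlap. Its averaged fall of 0.26 on the log2 scale passed the test (SE 0.0901, adjusted p = 0.0172 in edgeR), did not pass without mouse 2 of CCl4 (adjusted p = 0.0946), and passed in none of the 4 separate comparisons. Scaled to the hepatocyte markers, a choice made after the data were seen, the Stat5b difference was 0.03 with an adjusted p of 0.754. Of the receptor's other direct partners, the log2 fold change was -0.15 for Jak2 (adjusted p = 0.162) and -0.09 for Stat5a (adjusted p = 0.527), both turning positive under library totals and under hepatocyte scaling.

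The 3 genes of the circulating ternary complex all fell. Igf1 (chromosome 10, 87693642 to 87772904, plus strand) stood at 462, 666, 580.2 and 416 CPM in control, 416, 584 and 404 in 4MU, 761, 834 and 607 in siLuc-LNP, and 623, 721 and 517 in siHAS2-LNP. With CCl4 it was 237 and 211 CPM in the CCl4 group, 307, 362, 336 and 227 in CCl4 + 4MU, 477, 361, 354 and 389 in CCl4 + siLuc-LNP, and 328, 379, 442 and 480 in CCl4 + siHAS2-LNP. Each group with CCl4 lay below its counterpart without CCl4, but across treatments the values overlapped, the lipid nanoparticle groups being the higher ones in both settings. The averaged fall was 1.79-fold, or 0.84 on the log2 scale (SE 0.103, adjusted p = 2.81e-07 in edgeR). It was called under every treatment, with log2 fold changes of -1.25 in CCl4 against control, -0.60 with 4MU, -0.89 with siLuc-LNP and -0.61 with siHAS2-LNP. The call with 4MU was lost without mouse 2 of 4MU or mouse 1 or 4 of CCl4 + 4MU (adjusted p of 0.0513 to 0.189), and that with siHAS2-LNP without mouse 1 or 2 of siHAS2-LNP or mouse 1, 2 or 3 of CCl4 + siHAS2-LNP (adjusted p of 0.0627 to 0.184).

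Igfals (chromosome 17, 25084971 to 25100984, plus strand) encodes the acid-labile subunit that holds the ternary complex together. It stood at 189.9, 127, 134 and 107 CPM in control, 146, 136 and 85.9 in 4MU, 78.2, 185 and 168 in siLuc-LNP, and 229.5, 199 and 207 in siHAS2-LNP. With CCl4 it was 60.04 and 41.1 CPM in the CCl4 group, 89.96, 85.9, 86.6 and 56.3 in CCl4 + 4MU, 73.3, 116, 67.5 and 57.2 in CCl4 + siLuc-LNP, and 94.3, 76.0, 80.8 and 149 in CCl4 + siHAS2-LNP. The siHAS2-LNP mice were the highest of all groups and overlapped none of the siLuc-LNP mice, which was not counted over all genes. The difference between these groups without CCl4 missed the test (log2 fold change 0.56, adjusted p = 0.619 in edgeR). CCl4 lowered Igfals 2.02-fold on average (log2 fold change -1.01, SE 0.151, adjusted p = 5.23e-06 in edgeR). The fall was called in CCl4 against control (-1.46), with siLuc-LNP (-0.87) and with siHAS2-LNP (-1.09), and missed the test with 4MU (-0.62, adjusted p = 0.118 in edgeR). It did not pass against control without mouse 2 of CCl4 (adjusted p = 0.0759), nor with siLuc-LNP without mouse 2 or 3 of siLuc-LNP or mouse 1, 3 or 4 of CCl4 + siLuc-LNP (adjusted p of 0.0604 to 0.153).

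Igfals is a textbook STAT5 target, so the RefSeq promoter windows, 250 bases before to 50 bases after each transcript start, were searched for the STAT palindrome TTCNNNGAA, which reads the same on both strands. Of all 32851 windows, 8.3% held it. The table gave 14 windows for 9 of the 10 genes (all but Socs2), and 3 windows of 2 genes, Igfals and Cish, held the motif. The matches are shown because both genes are known targets of the pathway, read 5′ to 3′ on the plus strand of GRCm39 with the palindrome in capitals. In GENCODE vM39, both Igfals stretches lie inside the gene, outside the exons of Igfals, and in an exon of the antisense long noncoding RNA Gm41549. The matches describe the letters and say nothing of binding.
Igfals, 236 bases before the first start, chr17:25096572-25096601: gatctataatTTCTCAGAAaagaggctgag
Igfals, 58 bases before the second start, chr17:25097137-25097166: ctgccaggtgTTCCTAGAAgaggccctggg
Cish, in its first exon in the untranslated region, chr9:107173853-107173882: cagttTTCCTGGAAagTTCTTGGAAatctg

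Igfbp3 (chromosome 11, 7156086 to 7164179, minus strand, next to Igfbp1), the principal carrier of IGF-1 in blood, which the liver's non-parenchymal cells largely make, was low in these livers. It ranged from 8.04 to 33.3 CPM (median 21.9) without CCl4 and from 6.61 to 21.6 (median 14.7) with CCl4, with overlap. The averaged fall was 1.56-fold (log2 fold change -0.64, SE 0.146, adjusted p = 0.000751 in edgeR). It was called in CCl4 against control (-1.07) and with siLuc-LNP (-0.76). The first was lost without mouse 3 of control or either CCl4 mouse (adjusted p of 0.0505 to 0.164), and the second without mouse 1 or 3 of siLuc-LNP or mouse 2, 3 or 4 of CCl4 + siLuc-LNP (adjusted p of 0.059 to 0.15). With 4MU the log2 fold change was -0.03 and turned positive without mouse 2 or 3 of 4MU or mouse 4 of CCl4 + 4MU, or with the replicate number as a block. With siHAS2-LNP it was -0.71 and missed the test (adjusted p = 0.095 in edgeR).

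Igfbp1 (chromosome 11, 7147651 to 7152546, plus strand), whose product sequesters IGFs in fasting and stress, was the 1 gene that rose. It stood at 24.5, 42.0, 66.7 and 42.0 CPM in control, 18.8, 11.8 and 157 in 4MU, 16.4, 84.8 and 48.9 in siLuc-LNP, and 13.7, 31.1 and 55.5 in siHAS2-LNP. With CCl4 it was 193 and 267 CPM in the CCl4 group, 128, 175, 64.3 and 156 in CCl4 + 4MU, 193, 45.9, 225 and 238 in CCl4 + siLuc-LNP, and 178, 64.6, 48.7 and 41.3 in CCl4 + siHAS2-LNP. Single mice stood far from their group, 1 high in 4MU, 1 low in CCl4 + siLuc-LNP and 1 high in CCl4 + siHAS2-LNP, and the groups with and without CCl4 overlapped apart from CCl4 against control. The averaged rise was 3.13-fold (log2 fold change 1.65, SE 0.371, adjusted p = 0.000666 in edgeR). Of the separate comparisons, CCl4 against control passed (2.39, adjusted p = 0.018 in edgeR), and the log2 fold changes of 1.07 with 4MU, 1.81 with siLuc-LNP and 1.32 with siHAS2-LNP did not. The call against control was lost without mouse 2 of CCl4 (adjusted p = 0.122), and that with siLuc-LNP was gained without mouse 2 of CCl4 + siLuc-LNP (2.14, adjusted p = 0.0364).

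The insulin response core CAAAACAA, a sequence known from the Igfbp1 promoter and searched on both strands, was held by 2.51% of the 32851 promoter windows and by 1 of the 14 windows of these genes, that of Igfbp1. It is shown as the hallmark of this gene's insulin control, was chosen after the window had been read, and lies in a stretch that GENCODE vM39 also places in the untranslated first exon of a longer Igfbp1 transcript.
Igfbp1, core 108 bases before the RefSeq start, chr11:7147668-7147697 (GRCm39, plus strand): gagctcacaagCAAAACAAacttattttga

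The averaged effects on the other binding proteins were smaller. Igfbp4 (chromosome 11, 98932064 to 98945218, plus strand), which holds IGFs back from their receptor, ranged from 1430 to 2119 CPM (median 1676) without CCl4 and from 883 to 1826 (median 1305) with CCl4, an averaged fall of 1.30-fold (log2 fold change -0.38, SE 0.101, adjusted p = 0.00317 in edgeR). Of its separate comparisons, only that with siHAS2-LNP was called (-0.74, adjusted p = 0.0116 in edgeR), where the CCl4-injected mice at 883 to 1616 CPM lay below the siHAS2-LNP mice at 1857 to 2119. The siHAS2-LNP mice had the highest group mean, while siLuc-LNP stood at 1470 to 1596 CPM. With siLuc-LNP the groups did not overlap either, at 1007 to 1385 CPM with CCl4 (-0.37, adjusted p = 0.169 in edgeR). The group means with CCl4 were 1188 CPM in CCl4 + siHAS2-LNP and 1173 in CCl4 + siLuc-LNP. Igfbp2 (chromosome 1, 72863606 to 72891634, plus strand), an abundant hepatic binding protein, ranged from 363 to 774 CPM without CCl4 and from 196 to 1052 with CCl4. Its averaged log2 fold change was -0.15 (95% interval -0.51 to 0.20, adjusted p = 0.467 in edgeR). Its separate log2 fold changes had both signs, at -0.25 in CCl4 against control, 0.38 with 4MU, -0.87 with siLuc-LNP and 0.13 with siHAS2-LNP, and none passed. With siLuc-LNP (adjusted p = 0.0535 in edgeR) the groups did not overlap, which was not counted over all genes. The spread of Igfbp2 was wide in every CCl4 group, with 289, 422, 570 and 196 CPM in CCl4 + siLuc-LNP and 1052, 422, 554 and 418 in CCl4 + siHAS2-LNP.

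Of the feedback inhibitors, Socs2 (chromosome 10, 95219523 to 95253929, minus strand) stood at 22.2, 28.4, 13.6 and 17.1 CPM in control, 11.8, 46.5 and 24.8 in 4MU, 49.0, 27.8 and 17.7 in siLuc-LNP, and 26.2, 41.6 and 11.1 in siHAS2-LNP. With CCl4 it was 6.85 and 4.59 CPM in the CCl4 group, 10.4, 7.72, 4.87 and 9.85 in CCl4 + 4MU, 10.9, 9.25, 11.2 and 9.11 in CCl4 + siLuc-LNP, and 10.7, 8.97, 21.7 and 15.1 in CCl4 + siHAS2-LNP. The mice without CCl4 varied several-fold within a group, and the CCl4 + siHAS2-LNP mice were the only CCl4 group that overlapped its counterpart. The averaged fall was 2.89-fold (log2 fold change -1.53, SE 0.226, adjusted p = 4.28e-06 in edgeR). It was called in CCl4 against control (-1.83), with 4MU (-1.76) and with siLuc-LNP (-1.64), and missed the test with siHAS2-LNP (-0.90, adjusted p = 0.162 in edgeR). The first 3 calls were lost without mouse 2 of CCl4, mouse 2 of 4MU and mouse 1 of siLuc-LNP in turn (adjusted p of 0.151, 0.0666 and 0.0725).

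Cish (chromosome 9, 107173225 to 107179983, plus strand), the other STAT5-driven inhibitor, was the lowest of the 10 genes per length. It stood at 5.44, 6.19, 7.38 and 10.9 CPM in control, 6.40, 12.1 and 7.74 in 4MU, 8.06, 13.8 and 6.94 in siLuc-LNP, and 16.8, 13.3 and 13.4 in siHAS2-LNP. With CCl4 it was 3.79 and 1.92 CPM in the CCl4 group, 9.84, 9.47, 6.42 and 14.7 in CCl4 + 4MU, 15.7, 7.59, 3.78 and 5.68 in CCl4 + siLuc-LNP, and 9.31, 1.46, 8.78 and 6.67 in CCl4 + siHAS2-LNP. The 4 lowest levels were those of both CCl4 mice, 1 CCl4 + siHAS2-LNP mouse and 1 CCl4 + siLuc-LNP mouse. The remaining CCl4-injected mice, all of CCl4 + 4MU and the others of both nanoparticle groups, lay within the range of the mice without CCl4. The averaged fall of 0.64 on the log2 scale (SE 0.239) was near the threshold, with an adjusted p of 0.0275 in edgeR, and did not pass without mouse 2 of CCl4, of 4MU or of siLuc-LNP (adjusted p of 0.107, 0.059 and 0.0618). In CCl4 against control the log2 fold change was -1.41 and missed the test (adjusted p = 0.0564 in edgeR). The mice of these groups did not overlap, which was not counted over all genes and rests on the 2 CCl4 mice. The other log2 fold changes were 0.20 with 4MU (adjusted p = 0.782), -0.22 with siLuc-LNP (adjusted p = 0.767) and -1.14 with siHAS2-LNP (adjusted p = 0.0967), none of which passed in edgeR. Of the antisense neighbours counted, that of Cish had 0 counts in every library, and those of Socs2 had at most 23, against 113 to 1193 for Socs2 itself.

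**Figure D2:**
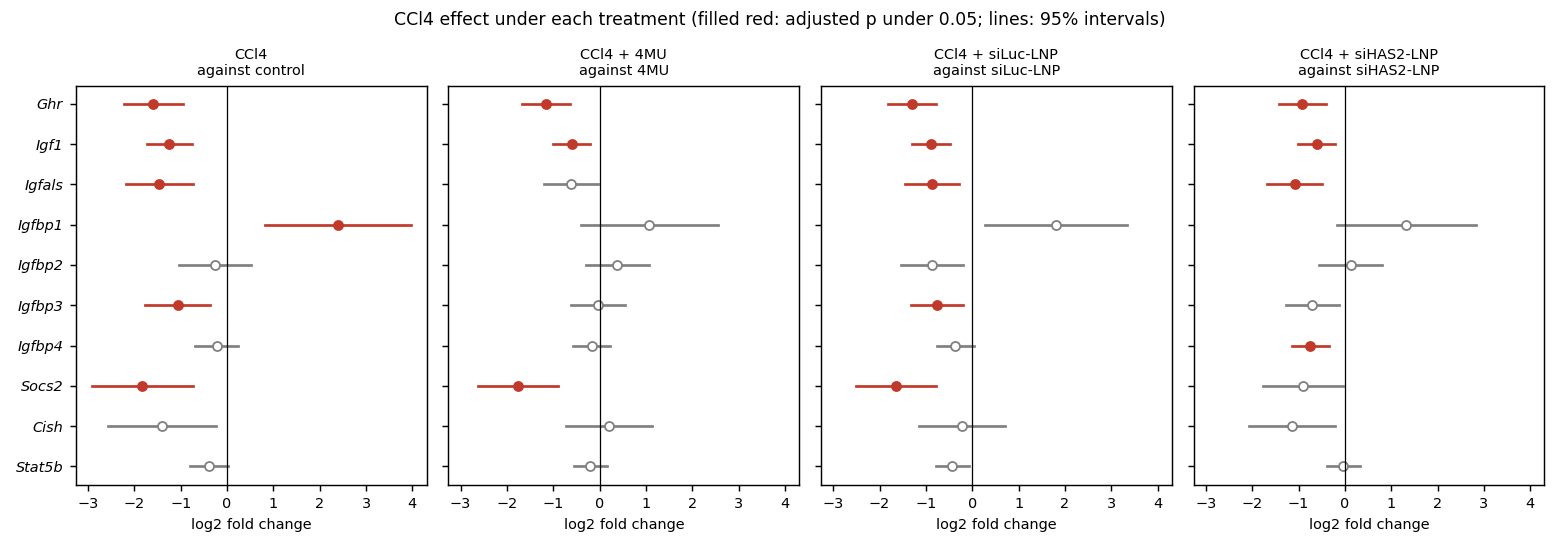
Log2 fold change (horizontal axes) of the 10 genes between CCl4-injected mice and their counterparts without CCl4, under each treatment, with 95% intervals. Filled red points passed the edgeR test; Ghr and Igf1 did in all 4 panels, and Igfbp1 lay to the right of 0 in all 4 and passed in CCl4 against control.

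Taken by treatment, 6 of the 10 genes were called in CCl4 against control, where 34.1% of all genes were (16.1% lower and 18.0% higher). With 4MU 3 were called beside 23.7% of all genes, with siLuc-LNP 5 beside 24.2%, and with siHAS2-LNP 4 beside 12.8%. These counts moved with single mice: without mouse 2 of CCl4 the first was 2, Ghr and Igf1, the remaining CCl4 mouse being assumed to vary like the other groups. Without mouse 2 of 4MU the second was 1, without mouse 3 of siLuc-LNP or mouse 4 of CCl4 + siLuc-LNP the third was 3, and without mouse 2 of siHAS2-LNP the fourth was 2. In the 3 interaction tests that were run, the CCl4 effect was not shown to differ for any of the 10 genes. The effects with 4MU and with siLuc-LNP were each set against that of CCl4 over control, and the effect with siHAS2-LNP against that with siLuc-LNP, not against control (edgeR, 5.67%, 0.00709% and 0.0354% of all genes called), with 3, 0 and 1 genes at an unadjusted p under 0.05. The 3 for 4MU were Igfbp3 (1.04), Cish (1.61) and Igf1 (0.64), and the 1 for siHAS2-LNP against siLuc-LNP was Igfbp2 (1.00), all log2 differences between 2 CCl4 effects.

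Over all treatments together, the hepatocyte marker sum was lower with CCl4, at a median of 162000 CPM against 193000 without it. With 4MU it was not lower, at 184000 to 221000 CPM in CCl4 + 4MU against 158000 to 188000 in 4MU. Scaled to those markers, which moves the median of all genes by 0.31 on the log2 scale in the averaged effect and by 0.75 in CCl4 against control, 5 of the 10 genes were still called in the averaged effect, beside 58.3% of all genes. These were Ghr (-0.93), Igf1 (-0.52), Igfals (-0.72), Socs2 (-1.22) and Igfbp1 (1.99). In CCl4 against control 3 were called, beside 59.9% of all genes, Ghr (-0.89), Igfbp1 (3.22) and Igfbp4, whose log2 fold change turned from -0.22 to 0.46 (adjusted p = 0.026 in edgeR), and Igf1 (-0.49, adjusted p = 0.114 in edgeR), Igfals, Igfbp3 and Socs2 were not.

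The next comparisons asked whether these genes differed in mice given 4MU or the lipid nanoparticles from before and during CCl4, all against the same 2 CCl4 mice. With 4MU 9 of 10 genes had a higher fitted level than in CCl4, and 1, Cish, passed the test, at 6.42 to 14.7 against 1.92 and 3.79 CPM, a 3.57-fold difference (log2 fold change 1.84, SE 0.572, adjusted p = 0.0281 in edgeR). Of all genes, 18.3% were called, with a median log2 fold change of 0.04. Of 17 hepatocyte markers, 7 were called higher and 0 lower. The Cish call was lost without mouse 2 of CCl4 (1.39, adjusted p = 0.313) or mouse 4 of CCl4 + 4MU (1.60, adjusted p = 0.0727). Ghr (0.41) and Igf1 (0.46) did not pass, and both were negative when scaled to the hepatocyte markers (-0.21 and -0.22).

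With siHAS2-LNP, 1 of 10 genes was called, Igf1, at 328 to 480 against 211 and 237 CPM (1.82-fold, log2 fold change 0.86, SE 0.232, adjusted p = 0.0157 in edgeR), beside 14.4% of all genes. The other log2 fold changes were 0.98 for Igfals (adjusted p = 0.0543), 1.30 for Socs2 (adjusted p = 0.0921), 0.86 for Igfbp3 (adjusted p = 0.0833), 0.71 for Ghr (adjusted p = 0.101) -1.46 for Igfbp1 (adjusted p = 0.201), 1.22 for Cish (adjusted p = 0.15), 0.46 for Igfbp2, 0.39 for Stat5b and -0.28 for Igfbp4, none of which passed in edgeR. Without mouse 2 of CCl4 no gene was called, and without mouse 1 or mouse 2 of CCl4 + siHAS2-LNP 2 and 3 were.

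With siLuc-LNP, the nanoparticle carrying an RNA without a target in mice, Igf1 stood at 354 to 477 CPM, also above both CCl4 mice. Its log2 fold change of 0.82 was close in size to that with siHAS2-LNP and missed the test (adjusted p = 0.101 in edgeR). Only 0.248% of all genes were called in this comparison, and 0 of the 10 were in edgeR, with 3 at an unadjusted p under 0.05 and 1, Igf1, called by DESeq2 and by edgeR without mouse 4 of CCl4 + siLuc-LNP. Set directly against each other, the siHAS2-LNP and siLuc-LNP mice with CCl4 differed in none of the 10 genes in edgeR (1.09% of all genes called, 1 of the 10 at an unadjusted p under 0.05, Igfbp2, and 0 by DESeq2). For Igf1 the log2 difference was 0.04 with a 95% interval of -0.33 to 0.42, and for Ghr it was 0.24 with an interval of -0.24 to 0.72. For Igfbp1 it was -1.07 with an interval of -2.42 to 0.28, the widest interval of the 10 genes.

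**Figure D3:**
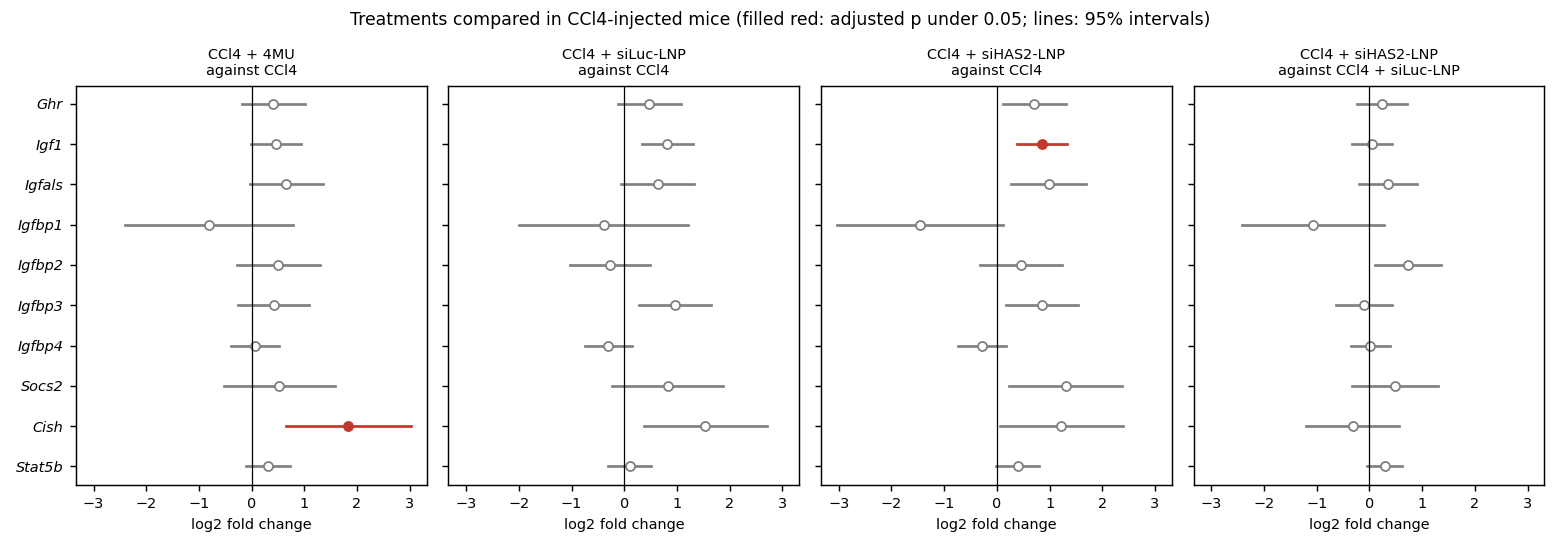
Log2 fold change (horizontal axes) of the 10 genes between groups of CCl4-injected mice, with 95% intervals. Filled red points passed the edgeR test, Cish in CCl4 + 4MU against CCl4 and Igf1 in CCl4 + siHAS2-LNP against CCl4; the first 3 panels share the same 2 CCl4 mice.

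In mice without CCl4, none of the 10 genes passed the test in the 3 comparisons run, and siHAS2-LNP was not tested against control. The numbers called among all genes were also small, 0.00709% for 4MU against control, 0.213% for siLuc-LNP against control and 0.0425% for siHAS2-LNP against siLuc-LNP. At an unadjusted p under 0.05 there were 1, 2 and 0 of the 10, and DESeq2 called 0 in each. The share of all genes at that unadjusted level was not counted, here or in the comparisons above. With 4MU the log2 fold changes ran from -0.63 for Igfbp3 (adjusted p = 0.69) to 0.51 for Igfbp1. With siLuc-LNP 9 of 10 were above 0, beside a median of 0.01 over all genes, from -0.16 for Igfbp4 to 0.66 for Igfbp3, and Igf1 was at 0.47 (95% interval 0.06 to 0.87, adjusted p = 0.612 in edgeR). With siHAS2-LNP against siLuc-LNP they ran from -0.58 for Igfbp1 to 0.60 for Cish.

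The genes around the axis were read from 6 lists, as counts of the CCl4 effect averaged over treatments, in which 51.9% of all genes were called. Of 24 tested genes of growth hormone receptor signalling, 3 rose and 4 fell (29.2% called), a median log2 fold change of 0.11. Prlr, the prolactin receptor and closest relative of Ghr, fell (-1.50, adjusted p = 6.54e-09 in edgeR), from 268 to 507 CPM in the mice without CCl4 to 75.5 to 246 in those with it. Cux2, a female-biased repressor, fell (-2.27) and Socs5, a suppressor of cytokine signalling, rose (0.53). With 4MU Socs5 was not higher, at a mean of 6.88 CPM in CCl4 + 4MU against 7.19 in 4MU. Under library totals alone the split was 12 higher and 3 lower, and under hepatocyte scaling 13 and 2.

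Of 12 tested genes in a list of other IGF system genes, which spans ligands, receptors, binding proteins, proteases, RNA-binding proteins and an adaptor, 7 rose and 1, the insulin receptor Insr (-0.34), fell (66.7% called), a median of 0.53. Those that rose were 1 receptor, Igf2r, 1 binding protein, Igfbp7, the RNA-binding proteins Igf2bp2 and Igf2bp3, the proteases Htra1 and Ctsd, and the adaptor Grb10. Grb10, an adaptor that blocks insulin and IGF receptors, rose from 3.20 to 7.58 CPM without CCl4 to 11.4 to 32.2 with it (log2 fold change 1.95, adjusted p = 2.56e-11 in edgeR). Igf2bp3, a fetal RNA-binding protein, rose (2.00), as did Igf2r, which clears IGF-2 (0.77), and the low-affinity binding protein Igfbp7 (0.67). With siHAS2-LNP the Igfbp7 levels overlapped, at 32.5 to 54.2 CPM in CCl4 + siHAS2-LNP against 36.6 to 41.4 in siHAS2-LNP. The other ligand, Igf2, was at 0 counts in all 13 mice without CCl4 and did not reach the filter, and Igf1r, a low transcript in liver, had a log2 fold change of 0.13 (adjusted p = 0.499 in edgeR). Under library totals 8 rose and 0 fell, and under hepatocyte scaling 10 and 0.

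The sex-biased genes of the liver are set by the rhythm of growth hormone, and both kinds had more genes that fell than rose in these female mice. Of 25 tested female-biased genes, 17 fell and 2, Prom1 and Ntrk2, rose (76.0% called, median -1.85), Ntrk2 not passing without mouse 1 of CCl4 (adjusted p = 0.0805). Cyp3a16, Cyp3a41a and Cyp3a41b, close copies among the steroid-metabolising cytochromes whose shared reads were not counted, had the lowest adjusted p. Cyp3a16 stood at 73.8 to 420 CPM without CCl4 and at 0.117 to 1.20 with it (log2 fold change -9.28, adjusted p = 7.13e-15 in edgeR), and the other copies fell from 20.1 to 105.4 CPM to 0 to 0.406 (Cyp3a41a) and from 8.34 to 78.1 CPM to 0 to 0.295 (Cyp3a41b), at or near the limit of 3 counts. Prom1 marks progenitor and duct cells, and rose (1.84) beside the cholangiocyte marker sum given above, whose part in it was not tested.

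Of 20 tested male-biased genes, 10 fell and 3, Mup20, Gstp1 and Egfr, rose (65.0% called, median -0.62), Egfr not passing without mouse 2 of CCl4 or mouse 1 of siLuc-LNP (adjusted p of 0.28 and 0.0542). Cyp7b1, an oxysterol hydroxylase, fell from 15.8 to 33.8 CPM without CCl4 to 1.86 to 5.72 with it (log2 fold change -2.67, adjusted p = 1.29e-13 in edgeR). Elovl3, a fatty acid elongase, was already low without CCl4, at 0.205 to 6.97 CPM, and near the detection limit with it, at 0 to 0.400 CPM. Its lowest level without CCl4, in a 4MU mouse, lay inside the range with CCl4. Serpina12, the adipokine vaspin, fell (-2.63). Under hepatocyte scaling the male-biased split was 6 higher and 7 lower, and the female-biased 3 and 17.

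Of 17 insulin and fasting response genes, 5 fell and 1 rose (35.3% called, median -0.25), the gluconeogenic enzymes Pck1 (-1.01) and G6pc1 (-0.96) among those that fell. In CCl4 + 4MU against 4MU, 2 rose and 0 fell (11.8% called beside 23.7% of all genes, median 0.36), a difference between treatments that was not tested for the list. For Pck1 the log2 fold change with 4MU was 0.77 (adjusted p = 0.235 in edgeR), at 1486 to 2857 CPM in CCl4 + 4MU against 1017 to 1428 in 4MU, while it fell with siLuc-LNP (-2.01) and siHAS2-LNP (-1.72). Irs2, which an insulin signal lowers, was the 1 that rose, a call lost without any of 15 single mice (adjusted p of 0.05 to 0.162). Under hepatocyte scaling 5 rose and 3 fell. Of 21 acute phase genes, 7 fell and 5 rose (57.1% called, median -0.16), with Crp (-0.66) and Hamp (-2.03), which encodes hepcidin, falling and Saa3, a serum amyloid of macrophages, rising (1.98). With siHAS2-LNP the Hamp levels overlapped, at 29.2 to 319 CPM in CCl4 + siHAS2-LNP against 36.9 to 154 in siHAS2-LNP. Hamp was thus already low in siHAS2-LNP, beside 412 to 596 CPM in control. The Saa3 levels also overlapped with siHAS2-LNP, at 8.68 to 33.1 CPM with CCl4 against 13.4 to 19.9 without it. By treatment, 2 of the acute phase genes rose and 7 fell in CCl4 against control, 4 rose and 1 fell with 4MU (median 0.40) and with siLuc-LNP (median 0.08), and 0 rose and 5 fell with siHAS2-LNP (median -0.16). These calls made 42.9%, 23.8%, 23.8% and 23.8% of the list, beside 34.1%, 23.7%, 24.2% and 12.8% of all genes. Under hepatocyte scaling 7 rose and 5 fell, and the median was 0.12.

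**Figure D4:**
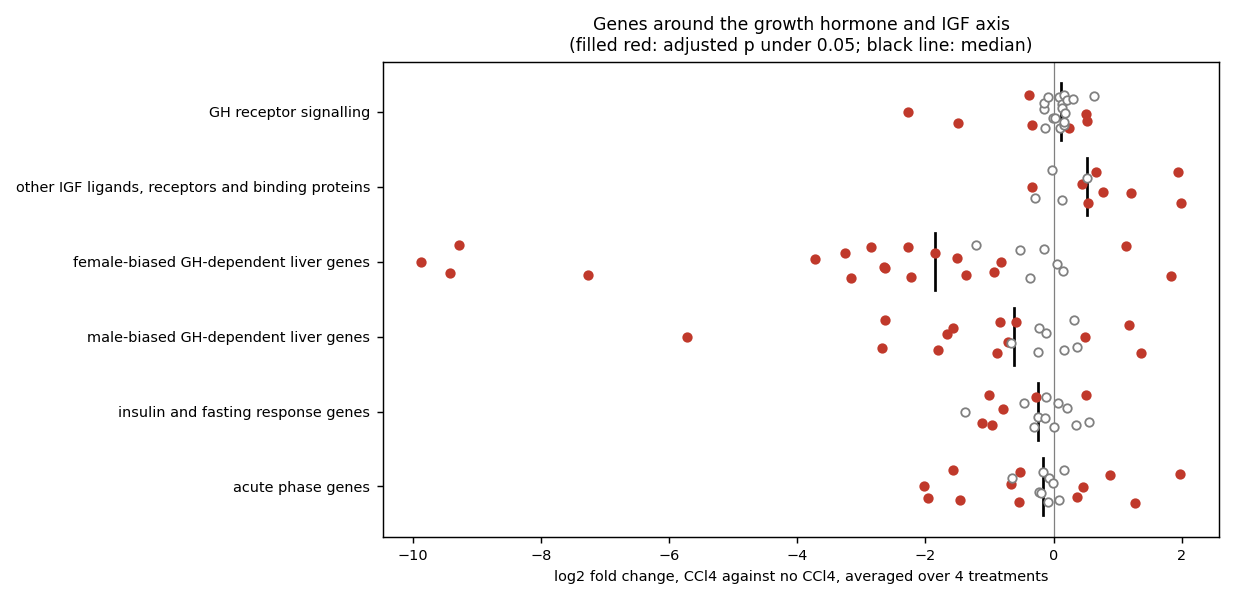
Log2 fold change of every tested gene of the 6 lists in the CCl4 effect averaged over the 4 treatments (horizontal axis), 1 row per list. Filled red points passed the edgeR test and black lines are medians; the female-biased genes have the lowest median, -1.85, and the other IGF genes the highest, 0.53.

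Against the same 2 CCl4 mice, the genes with the lowest adjusted p in their list in CCl4 + 4MU included Slc22a26, a female-biased transporter (2.44), Hsd3b2 (1.82) and Serpina3n (1.01). In CCl4 + siHAS2-LNP these genes included C6, a complement component (-2.14), Prlr (1.16), Il1rn (-1.40) and Igfbp6 (-1.60). These 7 passed the edgeR test, and 6 of them, all but C6, did not without mouse 2 of CCl4 (adjusted p of 0.107 to 0.503). The Igfbp6 call was lost without mouse 2 of CCl4 or mouse 1, 2 or 3 of CCl4 + siHAS2-LNP (adjusted p of 0.085 to 0.503), and C6 was also lower in siLuc-LNP than in control (-2.62, adjusted p = 2.97e-05 in edgeR), at 1.83 to 3.64 against 12.1 to 19.7 CPM, in mice that never received CCl4.

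By the distance between centred group means of log2 CPM over the 8 groups, Prlr and then Ghr were the genes nearest to Socs2 (root mean square distances of 0.17 and 0.20 on the log2 scale), followed by Acot4. The nearest to Ghr were Immp2l, Ces1d and Ccdc162, to Igf1 Cda, Rnd1 and Ccdc28b, to Igfals Mpv17l, Pxdc1 and Fbxo36, and to Igfbp1 Tpm2, Col6a2 and Ptgfrn. The distances are a description over 8 groups, and a distance by Spearman correlation named 0 of the same 3 genes for each of the 5.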

How the data were processed

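RNA from 27 mouse livers, 1 mouse per library, was sequenced by the authors with a directional kit. Each deposited value is the unnormalised number of counts of a gene, for 55414 genes, made by the authors with Trimmomatic 0.39, HISAT2 (version not stated) on GRCm39 with Ensembl release 105, and featureCounts in paired-end mode without multi-mapping reads, so close copies lose reads. The strand setting is not stated. Symbols and positions were taken from GENCODE vM39, which matched 54749 genes, and promoter windows from RefSeq (GRCm38.p6), placed on GRCm39 by an exact match. RPKM values were computed here with the exon length of each canonical transcript.

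Genes averaging 10 or more counts over the libraries, 14114 in all, were tested with edgeR 4.0.16 in R 4.3.3, with all 8 groups in 1 quasi-likelihood fit after TMM normalisation and Benjamini-Hochberg adjustment at 0.05. Alternatives used DESeq2 1.42.0, limma 3.58.1 voom, other scalings and filters, and each mouse left out. Scripts were tested on simulated data with 200 changed genes. Intervals are 95% and rest only on the spread between these mice, with an SE computed from the log2 fold change and its F statistic. Limits of 3 counts cover counting error only. Total counts were 7044386 to 29425937 per library. Figures were drawn in Python with matplotlib.

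The 10 genes, the 6 lists and the markers (hepatocyte, stellate cell and myofibroblast, endothelial, Kupffer cell and macrophage, cholangiocyte, lymphocyte, red cell) were chosen with earlier results of these data known. Named genes were the 10 genes, the 3 of each list with the lowest adjusted p in the averaged CCl4 effect and the 1 lowest among those called in each treatment comparison, and the 3 nearest to each of 5 genes, some of which are not reported here. Others were named after their values were seen where a count turned on them, and these are Insr, Prom1, Ntrk2, Mup20, Gstp1, Egfr, Irs2, Jak2, Stat5a, Igf2, Igf1r, Igfbp7, Igf2bp2, Htra1 and Ctsd. Replicates differed beyond counting noise in all 34 pairs within groups.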

Additional observations from a re-analysis of the deposited data

Results flagged for a closer look

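In groups of 4 mice, 2 of 40 combinations of gene and group held a mouse whose gap to the nearest other, divided by the range of the group, was above Dixon's critical value for 4 samples, and chance alone gives about 1 in 20. Igfals in CCl4 + 4MU was 56.3 CPM in mouse 4 against 85.9 to 89.96 in the other mice, a ratio of 0.902. Igfbp1 in CCl4 + siLuc-LNP was 45.9 CPM in mouse 2 against 193 to 238 in the others, a ratio of 0.873, and without this mouse the CCl4 effect with siLuc-LNP on Igfbp1 passed the edgeR test (log2 fold change 2.14, adjusted p = 0.0364).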

How the results depend on the processing

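Counts of the 10 genes called stayed within 1.5 times the reported ones except as follows. Scaled to the hepatocyte markers, an alternative added after the data were seen, the averaged effect gave 5 genes, CCl4 against control 3, the effect with siLuc-LNP 3, that with siHAS2-LNP 2, CCl4 + siLuc-LNP against CCl4 1, CCl4 + siHAS2-LNP against CCl4 2, and the 4MU interaction 1. Library totals alone gave 2 for the effect with siHAS2-LNP, 0 for CCl4 + 4MU against CCl4 and 0 for CCl4 + siHAS2-LNP against CCl4. Limma-voom gave 3 for CCl4 against control and 0 for CCl4 + 4MU against CCl4. DESeq2 gave 1 for CCl4 + siLuc-LNP and 3 for CCl4 + siHAS2-LNP against CCl4. Without the low-count filter, the effect with siHAS2-LNP gave 8, CCl4 + siLuc-LNP against CCl4 2, CCl4 + siHAS2-LNP against CCl4 6, siHAS2-LNP against siLuc-LNP in CCl4 1, and the 4MU interaction 2. With only the compared groups, CCl4 + siHAS2-LNP against CCl4 gave 4. Without mouse 4 of CCl4 + siLuc-LNP and of CCl4 + siHAS2-LNP together, also added later, the effect with siLuc-LNP gave 3 and CCl4 + siLuc-LNP against CCl4 gave 1. The cause of these differences was not tested. Shares of all genes called are given above only for some comparisons under hepatocyte scaling. For the other settings, and for the mice left out, a moved count is not shown to be particular to these genes.

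With 1 mouse left out at a time, the averaged effect gave 7 to 9 genes, CCl4 against control 2 to 6, the effects with 4MU, siLuc-LNP and siHAS2-LNP 1 to 4, 3 to 6 and 2 to 4, CCl4 + siHAS2-LNP against CCl4 0 to 3, CCl4 + 4MU and CCl4 + siLuc-LNP against CCl4 0 to 1 each, and every other comparison 0.

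Of the values that turned sign, Igfbp4 in CCl4 against control under hepatocyte scaling also passed the test (adjusted p = 0.026 in edgeR). Scaled to the hepatocyte markers, the averaged log2 fold changes of Igfbp2 (0.11), Stat5b (0.0324), Jak2 (0.20) and Stat5a (0.22) turned, as did Ghr (-0.21) and Igf1 (-0.22) in CCl4 + 4MU against CCl4, Igf1 in the 4MU interaction (-0.14) and Igf1 in siHAS2-LNP against siLuc-LNP with CCl4 (-0.00982). Library totals turned Jak2 (0.0421) and Stat5a (0.0831). In CCl4 against control, Igfbp2, Igfbp4 and Stat5b turned under hepatocyte scaling (0.427, 0.462 and 0.326) and library totals (0.119, 0.154 and 0.00194), and without mouse 2 of CCl4 so did Igfbp2 (0.123) and Igfbp4 (0.139), over ranges of -0.70 to 0.12 and -0.65 to 0.14 for single mice. Igfbp3 with 4MU turned without mouse 2 (0.17) or 3 (0.02) of 4MU or mouse 4 of CCl4 + 4MU (0.174), over a range of -0.24 to 0.17. Igf1 in siHAS2-LNP against siLuc-LNP with CCl4 turned without mouse 3 or 4 of CCl4 + siHAS2-LNP (-0.01 and -0.0505), mouse 2 or 3 of CCl4 + siLuc-LNP (-0.01 and -0.04), or both mice 4 (-0.0834), over a range of -0.05 to 0.14 for single mice. Library totals moved the median of all genes by 0.16 in the averaged effect and 0.39 in CCl4 against control.

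The mice share replicate numbers whose meaning the labels do not give, and no pairing was shown. Deviations from the group means of same-numbered mice had a median correlation of -0.02 over 83 pairs (-0.32 to 0.29), against -0.01 over 234 other pairs (-0.46 to 0.46). With so few mice per group, this check cannot exclude pairing. With the replicate number as a block, 9 genes were called in the averaged effect, 6 in CCl4 against control, 3, 4 and 3 with 4MU, siLuc-LNP and siHAS2-LNP, 1 in CCl4 + 4MU against CCl4, 1 in CCl4 + siHAS2-LNP against CCl4 and 0 elsewhere, and Igfbp3 with 4MU turned to 0.0216.

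The 2 CCl4 mice limit every comparison against that group, and Cish, Socs2 and Igfbp3, at fewer counts than the other genes, have the least depth.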
